A study of Mus musculus with 14 samples.

Results

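Heart and skeletal muscle are striated muscles, and the poly(A) sites of their transcripts were compared in 4 of the 14 libraries of a mouse 3P-seq study. 3P-seq, which profiles poly(A) positions, reads the ends of polyadenylated RNA, so each tag marks a place where a transcript was cleaved and given its poly(A) tail. The libraries were chosen by tissue: 1 wild-type and 1 miR-22 knockout library of heart, and 1 of each genotype of muscle. All came from total RNA of mice with the 129S5/SvEvBrd background. The knockout, an allele written miR-22D in the protocol, removes the microRNA miR-22, and the labels name no limit of the deletion to a tissue. The labels say only Muscle for the second tissue, with no muscle named, give no age, do not say whether tissues share an animal, and state that nothing was replicated. The 2 libraries of a tissue therefore served as its replicates after a term for genotype, which left 1 residual degree of freedom in the abundance test. Every p-value rests on a spread between these libraries that is shared over sites or pairs, not on the spread between animals. Intervals that overlapped or touched on a strand were merged over the 4 libraries into 89142 sites, against 159969 over all 14 libraries, and 12619 sites had enough tags to be tested.

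Most genes can end at more than 1 place. A proximal site gives a short 3′ untranslated region and a distal one a longer region, which can hold additional binding sites for microRNAs and RNA-binding proteins. Cardiac and skeletal muscle cells build sarcomeres of the same plan from partly different gene families, and both depend on calcium release and on ATP. miR-22 is known as a microRNA abundant in both, and its 2 mature strands are shown because they are what the knockout was made to remove. Their loss was not checked here, since 3P-seq reads the ends of polyadenylated RNA. The sequences are those of RefSeq for GRCm38.p6, 22 bases each, with the seed, bases 2 to 8, in capitals.
mmu-miR-22-5p: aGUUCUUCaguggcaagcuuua
mmu-miR-22-3p: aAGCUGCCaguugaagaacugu
The seeds of the strands differ, so they belong to different seed families.

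The wild-type heart library held 3360190 tags, knockout heart 3672513, wild-type muscle 4065757 and knockout muscle 2323440. Between 96.3% and 97.8% of them lay on tested sites. Positions are in mm9. The annotation given here belongs to GRCm38.p6, so nuclear sites are named by chromosome, start and end, and which gene each ends was not determined here. The tissue labels, and whether the second tissue is skeletal muscle, were accordingly not checked against nuclear marker genes. Levels are CPM, tags per 1000000 tags of a library, scaled by edgeR's TMM factors, and means carry the SD of 2 libraries. Where other tissues enter, CPM are taken per total tags without TMM factors and called total-tag CPM.

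Each tissue had a large set of sites far more abundant than in the other. Of the 12619 tested sites, 1258 were called higher in heart (9.97%) and 1048 higher in muscle (8.3%), 18.3% together, at an adjusted p under 0.05 in edgeR's quasi-likelihood test and at least a 4-fold difference. All of them went the same way in the wild-type pair and in the knockout pair of libraries. The calls were made on these same 4 libraries, so this describes them and is no independent support. The difference was 10-fold or more at 667 of the heart sites and 531 of the muscle sites, and 297 heart sites and 166 muscle sites had no tag in either library of the other tissue. In muscle the difference weighed more. Sites called higher in muscle held 37.8% and 40.5% of the tags of tested sites in muscle, wild type first, and 2.24% and 1.94% in heart. Sites called higher in heart held 25.7% and 18.2% of those tags in wild-type and knockout heart, and 0.726% and 1.04% in muscle. These are summed levels, and in bulk tissue fewer cells of a kind and less RNA per cell cannot be told apart.

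The counts, and which tissue had more calls, changed with the library set and the tool. Without the wild-type muscle library, in a fit with no genotype term, 431 sites were called higher in heart and 595 in muscle, and DESeq2 called 548 and 596. Of the calls, 54.6% were higher in heart under TMM scaling and 47.9% with DESeq2 and 64.9% under scaling by total tags alone, the last with 1593 and 862 calls and with a shift of all differences by a median of 0.34 (log2). At unadjusted p under 0.05 there were 4759 sites. Both heart libraries lay above both muscle libraries at 33.0% of tested sites and below them at 30.5%.

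**Figure D1:**
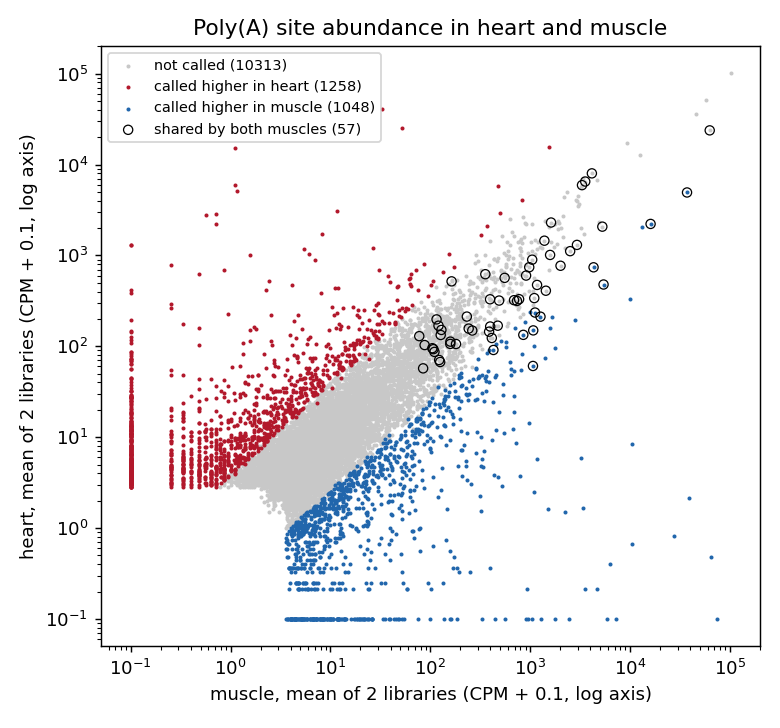
Mean level of each of the 12619 tested sites in muscle (horizontal) and heart (vertical), as CPM + 0.1 on log axes, means of 2 libraries. Red and blue points are the 1258 and 1048 called sites, and circles mark the 57 sites shared by both muscles and scarce elsewhere; the columns of points at the left and the bottom edge are sites without a tag in 1 tissue.

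Of the sites called higher in heart the most abundant, on chromosome 5 from 122556648 to 122556960 on the plus strand, stood at 56794 CPM in wild-type heart and 24767 in knockout heart. In muscle it stood at 2.75 in the wild-type and 62.0 in the knockout library. Both heart libraries were far above both muscle libraries, and the fitted difference was 11.19 ± 1.04 (log2 ± SE, edgeR adjusted p = 1.39e-24). A second site 6618 nt downstream, 122563421 to 122563540, had 199 and 95.8 CPM in heart and no tag in muscle, at least 267-fold higher by the floor of 3 tags over the muscle libraries. DESeq2 did not call this second site (adjusted p = 0.0738).

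The chromosome 9 site at 110672137 to 110672332, plus strand, was at 37564 and 13310 CPM in wild-type and knockout heart and at 3.36 and 101 in muscle, a fitted log2 difference of 9.96 ± 1.00 (edgeR adjusted p = 5.77e-21). On chromosome 14 the site at 55560742 to 55560827, minus strand, reached 20359 and 10014 CPM in heart against 0.611 and 1.39 in muscle, where it had 2 and 3 tags. Its fitted log2 difference was 13.88 ± 1.08 (edgeR adjusted p = 1.89e-34). At each of these sites the lowest heart value lay more than 100-fold above the highest muscle value.

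Chromosome 10 held 3 heart sites within 2 kb on the plus strand. The most upstream, 53063972 to 53064116, reached 7663 CPM in wild-type and 4167 in knockout heart. The middle site, 53065340 to 53065388, had 491 and 346, and the last, 53065679 to 53065830, had 2611 and 3130. In muscle the most upstream site had 2 and 3 tags, the middle one none and the last 1 and 2, so all 3 neighbouring ends were heart ends. The order of the 3 in level was the same in both heart libraries. The last was the single site of the 17 named heart sites that was higher in knockout than in wild-type heart.

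3 of the abundant heart sites also had clear levels in muscle. At chromosome 4, 129992654 to 129992736, plus strand, heart had 19897 and 11494 CPM and muscle 1334 and 1757, a log2 difference of 3.30 ± 0.68 (edgeR adjusted p = 1.20e-05). At chromosome 7, 29617192 to 29617264, plus strand, heart had 4373 and 3841 CPM and muscle 849 and 807, a difference of 2.31 ± 0.61 (edgeR adjusted p = 0.0011). On the minus strand of chromosome 2, the site from 113873021 to 113873338 had 7516 and 4070 CPM in heart and was uneven in muscle, with 79.7 in the wild-type and 872 in the knockout library. Its log2 difference was 4.38 ± 0.77 (edgeR adjusted p = 2.37e-07). At all 3 the tissues did not overlap, which was required of every named site. Without the wild-type muscle library their calls were lost, with edgeR adjusted p of 0.0607 at the chromosome 4 site, 0.107 at the chromosome 7 site and 0.0877 at the chromosome 2 site, which DESeq2 did not call either (adjusted p = 0.0516).

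Other heart sites were smaller and had no tag in muscle. The chromosome 7 site at 4469904 to 4470011, minus strand, had 1703 and 870 CPM in heart, at least 2331-fold higher by the floor of 3 tags. The chromosome 2 site at 90976642 to 90976672, plus strand, had 1501 and 1078 CPM, at least 2337-fold higher. In all, 7 of the 17 named heart sites had no tag in either muscle library, and the bounds on their fold ran from 260.0 to 2337. Muscle tags were few at the chromosome 1 site from 137748608 to 137748885, plus strand, which had 6329 and 3980 CPM in heart and 4 and 2 tags in muscle. The site on chromosome 14 at 32024737 to 32024938, plus strand, had 3783 and 1778 CPM in heart and 0 and 2 tags in muscle.

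Of the sites called higher in muscle the most abundant, on chromosome 11 from 67073849 to 67074018, plus strand, had 75114 CPM in the wild-type muscle library, 74590 in the knockout one and not a single tag in heart. Its level in muscle was 74852 ± 371 CPM (SD, n = 2), at least 192689-fold higher than the floor of 3 tags over the heart libraries. Along the same strand, 35867 nt upstream, a second muscle site at 67038035 to 67038074 had 2389 and 2521 CPM and also no heart tag. Another muscle site of that chromosome, 66927456 to 66927487, lay on the minus strand, with 1685 and 870 CPM in muscle and none in heart.

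Chromosome 15 held a pair of muscle sites 366 nt apart on the minus strand. The main one, 78021862 to 78021996, had 74993 and 54531 CPM in the muscle libraries, wild type first, against 1 and 2 tags in heart. Its neighbour downstream, 78021514 to 78021629, had 2019 and 1561 CPM and no heart tag. Of the 2 tissues, both ends were thus read in muscle apart from 3 tags.

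Chromosome 7 gave the largest number of named muscle sites. The site at 134357609 to 134357800, plus strand, had 40050 and 37958 CPM in muscle and 1.80 and 2.28 in heart, a log2 difference of -14.19 ± 1.10 (heart minus muscle, edgeR adjusted p = 4.43e-35). The site at 149701734 to 149701912, plus strand, had 26373 and 28280 CPM in muscle and 1 and 5 tags in heart. A further site 71603 nt upstream of it, 149630226 to 149630325, had 10955 and 9865 CPM in muscle and 3 and 1 tags in heart. At all 3 sites the muscle libraries lay close together and heart was close to 0.

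3 abundant muscle sites were also abundant in heart. The chromosome 7 site at 20006759 to 20006996, plus strand, had 36077 and 38371 CPM in muscle and 5983 and 3878 in heart, a log2 difference of -2.95 ± 0.69 (edgeR adjusted p = 0.000147). On chromosome 1, 36587033 to 36587123, minus strand, muscle had 15462 and 16668 CPM and heart 2857 and 1586. On chromosome 7, 54110963 to 54111020, plus strand, muscle had 13023 and 13104 and heart 2474 and 1687. The libraries of the 2 tissues did not overlap at any of them, which was required of every named site. The differences at these 3 sites, unlike those at the muscle sites above, stayed under 10-fold.

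Of the 17 named muscle sites, 9 had no tag in either heart library. Among these were the chromosome 7 site at 133589325 to 133589541, minus strand, with 8825 and 5791 CPM in muscle, and the chromosome 4 site at 43528489 to 43528601, minus strand, with 3887 and 7770. The bounds on their folds were 18813 and 15004. The largest edgeR adjusted p among the named muscle sites was 0.000293, and among the named heart sites 0.0011.

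Within a tissue, the library of 1 genotype was often above that of the other at abundant sites. The wild-type heart library was above the knockout one at 16 of the 17 named heart sites, where 62.5% of the 1478 tested sites at 50 CPM or more in heart were higher in wild type. In muscle this held for 9 of the 17 named muscle sites, against 69.3% of 1448. Over all called sites, most of them under 50 CPM, the wild-type library was the higher at 64.1% of the heart calls and 61.7% of the muscle calls. Among all tested sites, called or not, it was the higher at 49.8% in heart and 48.7% in muscle. Whether this goes with the level of the called sites was not tested. Over all tested sites the rank correlation was 0.868 between the heart libraries, 0.898 between the muscle libraries and 0.518 to 0.574 across the tissues, as a description over sites that share depth and merging. For the genotype term itself, edgeR called 12 sites.

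Tags were concentrated on few sites, and more so in muscle. The number of sites that together held 50% of all tags was 34 in wild-type heart, 43 in knockout heart, 14 in wild-type muscle and 16 in knockout muscle. Among nuclear tags alone it was 76, 176, 31 and 34. Both muscle libraries were below both heart libraries on either count; with 2 libraries against 2, an exact permutation test cannot reach the threshold, so none was made.

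Both muscles also shared a set of sites scarce elsewhere. At 57 sites all 4 libraries had at least 50 total-tag CPM and at least 4 times the highest level in the 8 libraries of liver, lung, white adipose tissue and kidney. These sites were chosen on those values, which are given as a description. They held 9.30% and 6.89% of the tags of tested sites in wild-type and knockout heart, 15.8% and 15.1% in muscle, and between 0.00857% and 0.153% of the tags in the other 4 tissues. In edgeR's comparison of the tissues 47 of them were not called, 10 were called higher in muscle and none higher in heart, where 8.3% and 9.97% of all tested sites were. Nothing is read from this, since the choice of sites used the same levels.

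The most abundant shared site, on chromosome 9 from 66875676 to 66875959, minus strand, had 30306 and 17251 CPM in heart and 80959 and 44647 in muscle. The tissues did not overlap, and the log2 difference of -1.39 did not pass (edgeR adjusted p = 0.105). The chromosome 7 site at 30970937 to 30971046, plus strand, had 8946 and 7057 CPM in heart and 4366 and 3931 in muscle, a log2 difference of 0.94 (edgeR adjusted p = 0.259). At chromosome 3, 141965278 to 141965340, minus strand, the 4 values were 1666, 1241, 1381 and 1396 CPM, and the tissues overlapped. The chromosome 7 and chromosome 1 sites described above as muscle sites also abundant in heart, at 20006759 and 36587033, belong to this set.

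A minority of the called sites also stood above the other 4 tissues. Of the heart calls, 354 (28.1%) were at least 4 times the level of every library of the other 4 tissues, against 6.14% of all tested sites. Of the muscle calls 458 (43.7%) were, against 6.17%. At 655 heart calls (52.1%) and 302 muscle calls (28.8%) some library of the other tissues was as high or higher, against 84.2% and 85.7% of all tested sites. For heart that library was most often lung, at 284 of the 655 sites, then kidney at 203, liver at 92 and adipose tissue at 76. For muscle it was lung at 97, adipose at 93, kidney at 72 and liver at 40. The level that made a site a heart or muscle call also enters these comparisons with the other tissues. The gaps to all tested sites were thus partly fixed by the choice of calls, and nothing is read from them.

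At the named sites the next tissue was nearly always the same one. The highest of the other tissues was lung at 15 of the 17 named heart sites and adipose tissue at all 17 named muscle sites. Some of these sites are neighbours on a strand. In a wider set, calls at 50 CPM or more and at least 4 times every other tissue, with tags elsewhere, were taken. There lung was next at 63 of 76 heart sites. For muscle the next tissue was more mixed, adipose tissue at 95 of 156 sites and lung at 42. The chromosome 14 heart site at 55560742 had 360.0 and 349 total-tag CPM in wild-type and knockout lung and at most 8.09 in the other 6 libraries. The chromosome 11 muscle site at 67073849 had 358 and 413 total-tag CPM in adipose tissue and at most 0.529 in the other 6. At 15 named heart sites and 16 named muscle sites the striated muscle was at least 4 times every other tissue. A named heart site that was not lay on chromosome 19 from 9158128 to 9158251, minus strand. It had 243 and 150 CPM in heart, none in muscle and 12689 and 6419 total-tag CPM in lung. The other, on chromosome 7 from 29617192, had 4345 and 4585 total-tag CPM in heart and 3537 and 3557 in adipose tissue. The named muscle site that was not, on chromosome 7 from 54110963, had 10490 and 12194 total-tag CPM in muscle. Its levels were 4423 and 4510 in adipose tissue and 2458 and 2014 in heart.

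**Figure D2:**
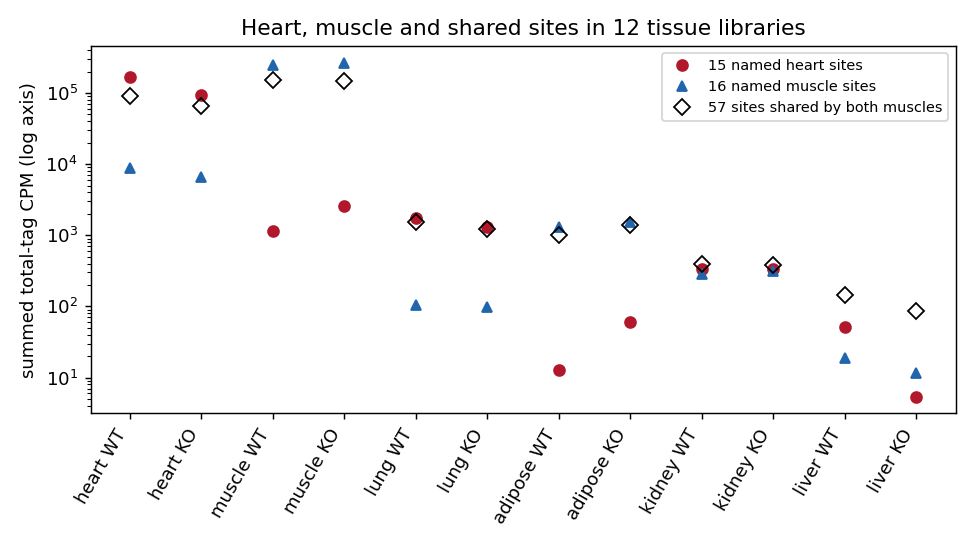
Summed total-tag CPM (vertical, log axis) of the named heart sites and named muscle sites that were at least 4 times every other tissue, and of the 57 shared sites, in each of the 12 tissue libraries (horizontal). The heart sites sum to 166102 and 94778 in heart and to 1742 and 1290 in lung; the muscle sites sum to 245254 and 267279 in muscle and to 1304 and 1523 in adipose tissue.

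Sites typical of other tissues were measured in the 2 muscles as well. A list of 179 lung sites held 127680 and 104912 total-tag CPM in lung, 3697 and 4033 in wild-type and knockout heart, and 913 and 1102 in muscle. None of the 179 was at 0 in heart, while 58 and 57 were at 0 in the muscle libraries. Of the 121 that were tested 48 were called higher in heart and 0 higher in muscle, where 9.97% and 8.3% of all tested sites were. A list of 87 adipose sites summed to 6018 and 7614 total-tag CPM in heart and 3893 and 6483 in muscle, which overlap. Of 54 tested, 4 were called higher in heart and 19 in muscle. A list of 94 kidney sites summed to 2207 and 1745 total-tag CPM in heart and to 749 and 717 in muscle, so heart was the higher without overlap here too, with 6 calls in each direction of 28 tested. A list of 140 liver sites summed to 294 and 334 in heart and 286 and 288 in muscle, with 8 calls for heart and 4 for muscle of 25 tested. The part of such tissue or shared cell types in the heart and muscle calls was not tested. Each list took sites at 8 times or more the other 6 libraries of these 4 tissues. Sites as high in heart or muscle were then dropped, 12 of 191 for lung and 7 of 94 for adipose tissue. Of the dropped lung sites 10 were more abundant in heart, and all 7 dropped adipose sites were more abundant in muscle. The lists were drawn from sites merged over the heart and muscle libraries, so a site with no tag in either tissue could not be listed. Tested members had also passed the filter on heart and muscle counts. The sums, and the numbers of sites at 0 and of calls, depend on these limits, and nothing is read from them.

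As a group, heart sites were at like levels in the 2 muscle libraries, but a few were far apart. Of 119 sites called higher in heart with at least 100 CPM in both heart libraries, 94 had at least 10 tags over the muscle libraries. In muscle 45 of the 94 were higher in the knockout library, near the 49.6% of all sites, with a median log2 ratio of -0.01. The ratio was 4-fold or more at 7 sites, against 0.583% of all 11497 sites with as many tags, and 4-fold lower at 2.

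The 7 included the 2 most abundant sites called higher in heart. The chromosome 9 site at 110672137 had 11 tags in wild-type and 218 in knockout muscle, the chromosome 5 site at 122556648 had 9 and 134, and the chromosome 2 site at 113873021 had 261 and 1885. At the chromosome 3 site from 122709119 to 122709222, minus strand, the counts were 5 and 44. By contrast the chromosome 14 site at 55560742, of similar rank in heart, had 2 and 3 tags in the same libraries. With 1 library of each genotype these counts have no replicate check.

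Site use, the share of a unit's tags at the more distal of 2 neighbouring sites, differed at few pairs. Among 3066 neighbouring tested sites 100 to 5000 nt apart on a strand, 1839 pairs had at least 20 tags in each library and at least 5% of the tags at each site. The pairs had a median distance of 724 nt. The median distal share was 50% in both heart libraries, 52.7% in wild-type and 51.4% in knockout muscle. The main site was the same in all 4 libraries at 1334 pairs (72.5%). It was distal in both heart libraries and proximal in both muscle libraries at 29 pairs, and the other way round at 56.

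edgeR called 28 pairs more distal in heart (1.52%) and 53 more distal in muscle (2.88%) at an adjusted p under 0.05, and 316 pairs had an unadjusted p under 0.05. The shares of the 2 tissues did not overlap at any called pair, nor at 366 and 531 of all pairs in the 2 directions. The median difference was 34.9 percentage points at the heart-distal pairs and 34.7 at the muscle-distal ones in the opposite direction, where the median absolute difference over all pairs was 7.34 points. The main site switched at 10 of the 28 and at 16 of the 53. By the sign of the fitted differences alone, the 2 sites of a pair moved opposite ways at 22 of the 28 and 39 of the 53. A called shift in share favours opposite signs, so nothing is read from these counts. Both sites were called in opposite directions at 0 of the called pairs. At 10 of the 28 and 24 of the 53 neither site was called in abundance. The counts are fragile: without the wild-type muscle library they were 10 and 15, and with sites merged over all 14 libraries 4 and 6. In that merging 9 of 15 named pairs were still called, and edgeR's prior degrees of freedom for the spread, which set how much pairs borrow from each other, were 8.33 in place of 24.7.

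The pair with the most tags lay on chromosome 8, minus strand, with the proximal site at 47292701 and the distal one 174 nt further, at 47292527. It had 8150 and 12407 tags in wild-type and knockout heart and 41622 and 22927 in muscle. The distal site took 16.0% and 9.78% in heart and 83.2% and 89.6% in muscle. The 2 tissues thus used opposite main sites, and the log2 shift in the odds of the distal site was -5.51 ± 0.91 (heart minus muscle, edgeR adjusted p = 0.000444). The proximal site was at a like level everywhere, 2052 and 2553 CPM in heart and 2138 and 1099 in muscle. The distal site was not, at 389 and 277 CPM in heart against 10572 and 9505 in muscle, so the difference lay at the distal site.

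The reverse was found on chromosome 9, minus strand, at 66364038 and 66359411, 4627 nt apart. The distal site took 96.2% of 397 and of 422 tags in heart, and 32.4% of 37 and 12% of 25 tags in muscle, a log2 shift of 6.46 ± 0.75 (edgeR adjusted p = 8.59e-06). The distal site had 114 and 92.6 CPM in heart and 3.66 and 1.39 in muscle, while the proximal one had 4.49, 3.65, 7.63 and 10.2 CPM in the 4 libraries. Here too the distal end carried the difference.

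On chromosome 15, plus strand, the proximal site carried it. At 99555435 it had 98.8 and 64.6 CPM in heart and 727 and 942 in muscle, and the distal site at 99558544, 3109 nt further, had 88.4 and 63.0 against 59.2 and 52.3. The distal share was 47.2% and 49.4% in heart and 7.53% and 5.26% in muscle, a log2 shift of 3.79 ± 0.61 (edgeR adjusted p = 0.000304). The tissues were apart by far more than the spread between libraries.

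On chromosome 14, plus strand, both sites moved. The proximal site at 56195788 had 72.8 and 104 CPM in heart and 277 and 226 in muscle, while the distal site at 56200363 had 350 and 185 in heart and 43.4 and 93.0 in muscle. The distal share was 82.8% and 64.0% in heart against 13.5% and 29.2% in muscle, from 689 to 1411 tags a library (edgeR adjusted p = 0.00182). On chromosome 8, minus strand, at 34894536 and 34893148, it was 77.4% and 58.8% in heart against 9.21% and 5.22% in muscle.

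Further pairs with more distal ends in muscle had fewer tags than the chromosome 8 pair described first. On chromosome 5, plus strand, at 93603983 and 93605462, the distal share was 9% and 16.5% in heart and 65.0% and 81.0% in muscle, from 58 to 100 tags. On the X chromosome, plus strand, at 5562046 and 5562293, 247 nt apart, it was 43.2% and 53.8% in heart and 98.6% and 97.4% in muscle. On chromosome 9, plus strand, at 123371252 and 123371781, it was 19.5% and 36.7% against 96.8% and 100%. On chromosome 2, minus strand, at 129998641 and 129997367, muscle was uneven, at 50.6% and 92.3%, and heart was at 6.95% and 16.8%. The tissues did not overlap at any of these pairs, which was a condition for naming a pair. Of the 16 named pairs, 4 lost their call without the wild-type muscle library: chromosome 3 at 30718663, chromosome 10 at 94943464, and chromosome 11 at 50013928 and 60369400.

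**Figure D3:**
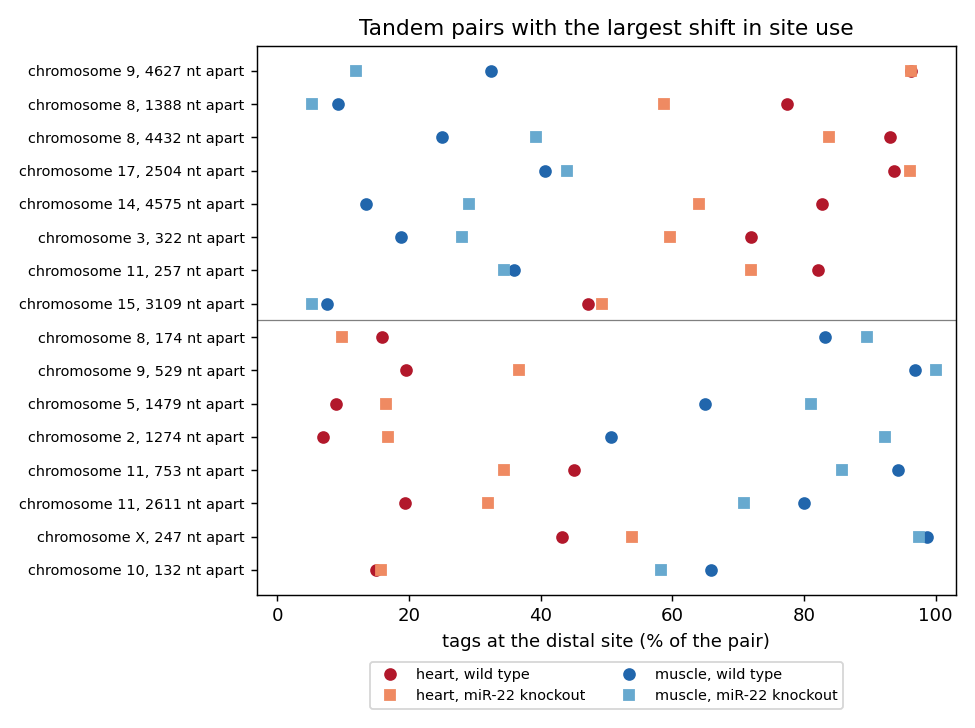
Share of tags at the distal site (horizontal, % of the pair) in each of the 4 libraries for the 16 named pairs, labelled by chromosome and distance. The 8 pairs above the line were more distal in heart and the 8 below more distal in muscle. Circles are wild type and squares knockout. The red and blue marks do not overlap in any row, which was a condition for naming a pair. Whether a pair ends transcripts of 1 gene, or lies in repeated sequence such as rRNA genes, was not determined here, the chromosome 17 pair included.

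Called pairs were found at short and long distances. Among the 458 pairs 100 to 299 nt apart, 5 were more distal in heart and 15 in muscle. Among 652 pairs 300 to 999 nt apart the counts were 9 and 12, and among 729 pairs 1000 to 5000 nt apart 14 and 26. No test of the difference between these classes was made.

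Where both sites of a neighbouring pair were called, they nearly always went the same way. Of the 3066 neighbouring pairs, both sites were called higher in heart at 237 and both higher in muscle at 220, while 397 had 1 site called and the rest none. Opposite calls were found at 4. The clearest was on chromosome 11, plus strand, where the site at 94813159 had 5.69 and 9.35 CPM in heart and 0.916 and 0.925 in muscle, and the site at 94814353 had 13.5 and 67.3 in heart and 513 and 257 in muscle. On chromosome 1, plus strand, the site at 75363954 had 7.49 and 3.42 CPM in heart and 0.611 and 0.925 in muscle, and its neighbour at 75364287 had 171 and 128 in heart and 963 and 1183 in muscle. In both cases the heart-favouring site was the scarcer of the 2.

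The mitochondrial genome is transcribed from both strands as long RNAs that are cut into single messages and rRNAs and then polyadenylated. It encodes subunits of the respiratory chain and of ATP synthase, and it was the part of the data where ends could be tied to genes, since they fell on the gene ends of the RefSeq table. Of the plus-strand tags, 56.3% lay within 10 nt of the end of an mRNA or rRNA gene, against a median of 0.262% when the gene ends were shifted by more than 20 nt. The highest share over those shifts was 20.3%, at 126 nt, where shifted ends met another abundant end described below. The share of all tags that was mitochondrial was 22.6% and 31.3% in wild-type and knockout heart and 22.3% and 20.2% in muscle. The means were 26.9% ± 6.12 in heart and 21.3% ± 1.45 in muscle (SD, n = 2). The values lay close together apart from knockout heart.

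CYTB, a subunit of respiratory complex III, had the highest mean among the messages' gene ends that had tags. It had 47484 and 43109 CPM in heart and 52048 and 55492 in muscle. The 7 messages without a listed end, named below, could not be ranked. ND4, a subunit of complex I, had 40313 and 24553 CPM in heart and 40523 and 46615 in muscle. At both genes both muscle libraries were above both heart libraries in CPM, though wild-type muscle and wild-type heart were nearly equal at ND4, and as a share of mitochondrial tags the tissues overlapped. ND1, another subunit of complex I, had 28707 and 20540 CPM in heart and 52355 and 37985 in muscle, apart also as a share of mitochondrial tags, 12.6% and 7.84% against 18.9% and 17.5%.

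Downstream of ND1 a further abundant end lay at position 3843, 1 nt from the boundary of the tRNA gene TrnQ in the same table. Which transcripts end there was not determined here. Of the tags at this end and at the ND1 end together, it took 56.8% and 79.2% in heart and 49.5% and 41.7% in muscle, so the heart libraries were higher and did not overlap with muscle. Its level did overlap, at 37750 and 78216 CPM in heart and 51403 and 27156 in muscle. An end inside the 12S rRNA gene mt-Rnr1, at position 605, had 5971 and 5657 CPM in heart and 2177 and 2272 in muscle, 5814 ± 222 against 2225 ± 67.4 (SD, n = 2). These ends at 3843 and 605 were picked out after their values were seen. The rRNA gene ends themselves overlapped between the tissues, at 1995 to 4214 CPM for mt-Rnr1 and 5250 to 13745 for mt-Rnr2, the 16S rRNA.

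No plus-strand end was listed between positions 6418 and 11046, a stretch of 4628 nt in which 7 protein-coding genes end: COX1, COX2, ATP8, ATP6, COX3, ND3 and ND4L. This held for both tissues, so these messages could not be compared. Of the 58 merged mitochondrial sites tested, edgeR called none at 4-fold in either direction; 3 had an adjusted p under 0.05 and 5 an unadjusted p under 0.05. The merged sites join several ends, the one from 2256 to 3843 among them, which takes in the ends of mt-Rnr2 and ND1 and the end at 3843.

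**Figure D4:**
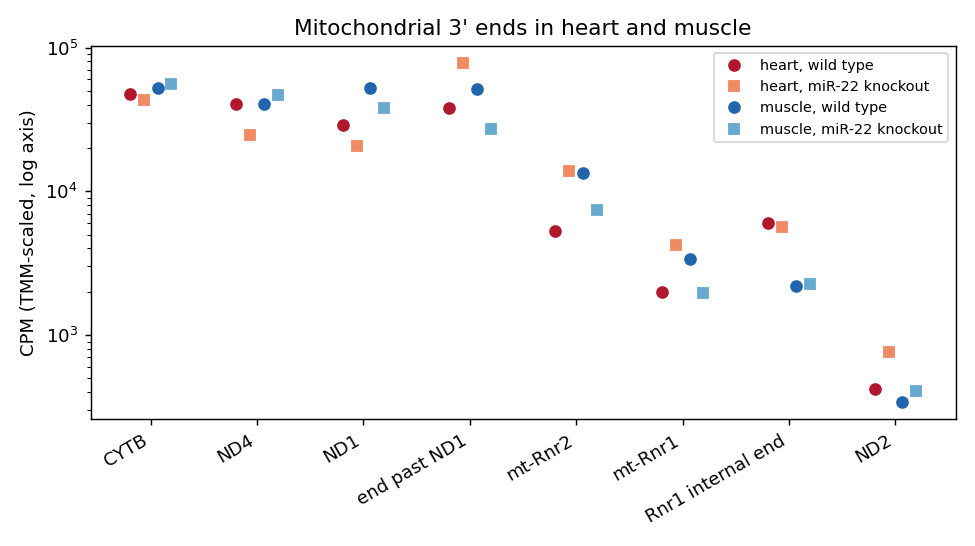
Level of 8 mitochondrial 3′ ends (CPM, log axis) in the 4 libraries, circles wild type and squares knockout. ND1 is higher in both muscle libraries and the end inside the 12S rRNA gene (Rnr1 internal end) in both heart libraries, while the end past ND1 and the rRNA ends overlap.

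Lists of muscle genes could be followed no further than their chromosomes. In the RefSeq table of GRCm38.p6 the 11 cardiac sarcomere genes listed, among them the cardiac myosins Myh6 and Myh7, lie on 7 chromosomes, which also hold 11 of the 17 named heart sites and 13 of the 17 named muscle sites. The 12 fast skeletal sarcomere genes, among them the myosins Myh1, Myh2 and Myh4, which neighbour each other on chromosome 11, lie on 7 chromosomes with 8 of the named heart sites and 14 of the named muscle sites. Sharing a chromosome ties no site to a gene.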

How the data were processed

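3P-seq libraries of heart and muscle from wild-type and miR-22 knockout mice were analysed, 1 of each, with the 8 libraries of liver, lung, adipose tissue and kidney for comparison. Base calls came from CASAVA 1.7 and reads were aligned with Bowtie to mm9, per the submitters' processing notes; no label or header states the grouping of reads into sites. As deposited, each site carries an estimated count of tags, not scaled. Between 1.26% and 5.50% of the sites in the 4 libraries have a value that is not whole, and sums per merged site were rounded. The offset named in the track lines was not applied, so positions may differ by 1 nt from a browser's.

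Overlapping or touching intervals of a strand were merged over the 4 libraries, and the end of the most abundant interval gave a site's position. Abundance was tested in R 4.3.3 with edgeR 4.0.16 (filterByExpr by tissue with a minimum count of 10, TMM, quasi-likelihood test, terms for tissue and genotype), with Benjamini-Hochberg adjustment over 12619 sites. The common biological coefficient of variation was 0.327. Pairs were tested over 1839 pairs with a term for each library, for the distal site and for its change with genotype and tissue. Alternatives were DESeq2 1.42.0, other scalings, filters, mergings, thresholds and libraries, and leaving out each library. CPM are TMM-scaled; total-tag CPM divide by all tags of a library and are used where other tissues enter. Counting bounds use a floor of 3 tags over the 2 libraries of a tissue and cover counting error only, since no molecular identifiers mark single molecules.

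Named sites are, per direction, the 12 of largest fold and the 8 of highest mean. They were taken from called sites with 50 CPM or more and tissues that did not overlap. Named pairs are, per direction, the 8 of largest difference in distal share among called pairs with shares that did not overlap. Opposite neighbours, shared sites and sites of uneven level in muscle follow rules of their own, stated with them, and were chosen after values were seen. The members, lists and tests were chosen with earlier results of these data known. Mitochondrial gene ends came from RefSeq's GRCm38.p6 table, checked by shifting them.

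The steps were tested on simulated counts. With 200 of 12619 sites changed, each with a mean of 20 tags or more, edgeR recovered 25% of 4-fold and 95.5% of 8-fold differences in abundance. Recovery was scored by an adjusted p under 0.05 alone, without the 4-fold cut of a call. In the data far more sites passed that adjusted p, 15.4% higher in heart and 13.7% higher in muscle. The adjustment is then less strict, so recovery in the data can differ from these shares. With 200 of 1839 pairs shifted, 3.5% were found when the distal site's odds changed 4-fold and 63% when they changed 8-fold, so smaller shifts were mostly beyond reach. The mESC and 3T3 libraries entered only the merging over 14 libraries.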

Additional observations from a re-analysis of the deposited data

How the results depend on the processing

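The number of sites called changed with the tool, the filter, the fold threshold and the wild-type muscle library. Sites called higher in heart numbered 548 with DESeq2, 2080 without a filter on low counts and 1945 at 2-fold, against 1258. Sites called higher in muscle numbered 596 with DESeq2 and 1735 at 2-fold, against 1048. Leaving out 1 library at a time, without a genotype term, gave 431 to 1445 and 595 to 1414, the lowest of each without wild-type muscle. DESeq2 shared 1142 of the 2306 calls and the fit over 12 tissue libraries 2229. Pairs more distal in heart numbered 4, and in muscle 6, with sites merged over 14 libraries, against 28 and 53, and without the genotype term 35 were more distal in muscle. Leaving out 1 library gave 10 to 39 and 15 to 77 pairs; the cause was not tested. Sites holding 50% of nuclear tags numbered 76, 176, 31 and 34, more than among all tags since the abundant mitochondrial sites are left out. None of the named sites and pairs turned its direction under the alternatives run, but heart had the fewer calls with DESeq2 and without wild-type muscle, and the more in the main comparison. Of 34 named sites, 31 kept their call with DESeq2 and without wild-type muscle, and all 34 in the fit over 12 tissue libraries. The 3 lost with DESeq2 lay on chromosome 5 at 122563421, chromosome 3 at 154449262 and chromosome 2 at 113873021. No pairing by animal was possible because the labels do not say whether tissues share an animal. The genotype term matches heart and muscle libraries of the same genotype. The mitochondrial share of tags ranged from 22.6% to 31.3% in heart and from 20.2% to 22.3% in muscle with 1 library left out. Pairs had a median of 52 to 97 tags a library, which limits the precision of a share.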
